A study of Canis lupus familiaris with 62 samples.

Results

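Chromosome 27 of the dog carried 712 of the 30951 genes in the deposited counts, and the 564 described here have more than 1 exon row and span less than 500 kb. The other genes of the chromosome were 144 with a single exon row, 3 with a span of 500 kb or more and 1 further gene that was set aside. The 564 genes ran from position 144362 to position 45856791 of CanFam3.1, with 287 on the plus and 277 on the minus strand. Their median span was 18877 bases (303 to 486306) and their median number of exon rows was 11. Reads were counted without strand, and 170 of the genes overlapped another gene, 119 of them one on the other strand, so the reads of such pairs cannot be told apart. The files give identifiers without gene names, and the name table at hand matched 0 of them. Genes are therefore called by identifier, and no role is given to any of them.

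Total RNA of 62 meningiomas of dogs, which are tumours of the meninges, was sequenced with 1 library per dog. All were paraffin-archived tissue, taken as surgical biopsies or at necropsy, and the labels do not say when a treatment was given relative to sampling. By treatment label, 9 dogs had surgery and radiotherapy (SxRT; 5 female, 2 intact), 13 had surgery alone (Sx; 5 female, 2 intact), 3 had radiotherapy alone (RT; all male), 3 had an anti-epileptic alone (2 female), 7 had a steroid, 6 of them labelled as steroid/anti-epileptic and 1 as steroid alone (5 female), and 27 had no treatment (14 female, 3 intact). Dogs not given as intact were neutered, and ages are not among the labels used here. The labels give no molecular class of the tumours.

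In tumours with an uneven number of chromosomes, genes of a lost or gained chromosome often carry less or more RNA together, in proportion to the number of gene copies. Single genes can depart from this through their own regulation. Chromosome losses are common in meningiomas of people. DNA was not measured here, so the values below are RNA levels along a chromosome and no copy number.

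Library totals ran from 1967061 to 12063982 counts with a median of 4190135, and the 564 genes took between 53964 and 316549 counts, or 1.49% to 3.45% of a library (median 2.65%). Of the 564 genes, 36 had no count in any library and 223 were counted in every library. Each read of a pair was counted, so the precision is lower than the totals show. A filter on low counts left 403 of the 564 genes for the tests between treatments and set 161 aside. For the scores below, 277 genes with a mean of at least 2 on the log2 CPM scale were used, where CPM is a gene's share of the scaled library total. These are bulk samples, so fewer cells of a type and less RNA per cell cannot be told apart.

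The level of chromosome 27 differed most between tumours at its low end. The chromosome 27 score of a tumour was built from each gene's deviation, its log2 CPM less its own average over the 62 tumours. Deviations were averaged over the 277 genes, and the tumour's median of such averages over the 38 autosomes was subtracted. The scores ran from -0.683 to 0.324 with a median of 0.0792 and an SD of 0.226 (n = 62). In 22 tumours the score was below 0. In 7 it was below -0.3, and in 1 it was above 0.3. The widest gap between neighbouring scores, 0.121, lay between -0.397 and -0.277 and separated the 7 lowest tumours from the rest. Those 7 were 5 of 27 untreated and 2 of 13 Sx tumours. Chromosome 27 had the fourth largest SD of the score among the 38 autosomes.

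Each low tumour was low along nearly all of the chromosome. With the chromosome divided into bins of 5 Mb, 9 bins held at least 10 scored genes, and 62 of the 63 bin scores of the 7 tumours were below 0. With bins of 10 Mb, 35 of 35 were below 0. The 7 tumours were picked by the mean over these same genes. Mostly negative bins, and many genes below their median, thus follow in part from that choice. The lowest tumour, untreated replicate 21, had a score of -0.68, with bins from -0.85 to -0.27 and 86.3% of the 277 genes below their own median over tumours. Sx replicate 11 had a score of -0.60, with bins from -1.37 to -0.47 and 81.2% of the genes below their median. Sx replicate 10 had the same rounded score, with bins from -1.04 to -0.20 and 78.3% of the genes below their median. These 3 tumours thus held no bin at or above the average of all tumours.

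Untreated replicate 23 had a score of -0.53, with bins from -0.81 to -0.39 and 85.9% of the genes below their median. Untreated replicate 9 had a score of -0.50 and bins from -0.91 to -0.02. Untreated replicate 15 had a score of -0.42 and bins from -0.71 to 0.01, the single value above 0. In untreated replicate 17 the score was -0.40, the genes before position 20706207 averaged -0.62 and those after it -0.18. This tumour was therefore the most uneven of the 7 between the 2 parts of the chromosome.

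Outside those 7 tumours a low level along the whole chromosome was seen once. Sx replicate 13, at -0.277, had all 9 bins below 0, from -0.61 to -0.05. The tumour labelled anti-epileptic replicate 3 had a score of -0.238 made of different parts: its genes averaged -0.52 before position 20706207 and 0.04 after it, and its bins 8 and 9 stood at 0.51 and 0.16. At the high end, Sx replicate 8, at 0.324, was not high throughout, with bins from -0.55 to 0.82.

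**Figure D1:**
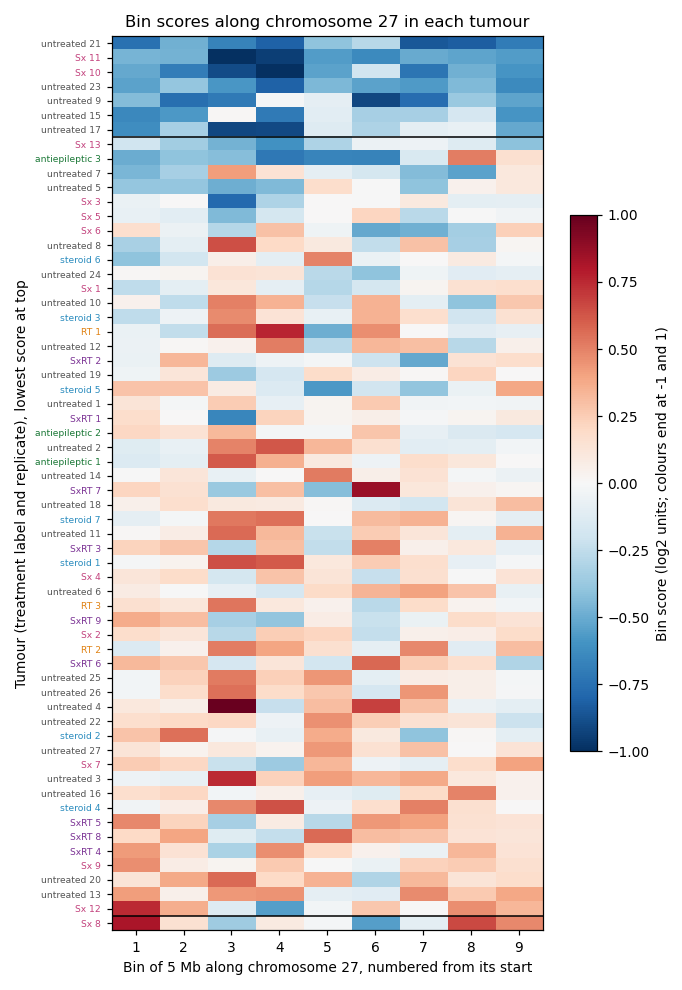
Bin scores along chromosome 27, 1 row per tumour from the lowest chromosome 27 score at the top to the highest at the bottom, and 1 column per 5 Mb bin with at least 10 scored genes; blue is below and red above the mean of all tumours, in log2 units. The 7 rows above the upper line scored below -0.3 and are blue in 62 of 63 bins, and the bottom row is the 1 tumour above 0.3, with bins from -0.55 to 0.82.

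In library measures the low tumours lay within the range of the others. Their totals ran from 2894630 to 8385232 counts, against 1967061 to 12063982 over all tumours. Mitochondrial counts were 6.56% to 13.7% of their totals, against 3.00% to 46.7% over all. Of their counts from 1 to 20, 82.5% to 93.4% were even, a share that drops where reads of a pair were not both assigned to the gene, against 79.3% to 95.3% over all. Of the 7 dogs 6 were male and 3 were intact, where 31 of the 62 dogs were male and 7 intact. Other autosomes were beyond -0.3 or 0.3 too. With chromosome 27 itself, between 4 and 15 autosomes were beyond these limits in each of the 7, and the median over all 62 was 1. Chromosome 17 scored below -0.3 in 6 of the 7 and in 16 of all 62, and chromosome 3 in 4 of the 7 and in 9 of all 62.

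The 2 parts of the chromosome went together over tumours. The mean of the 138 genes before position 20706207 and that of the 139 after it correlated with Pearson's r 0.785 and Spearman's rho 0.584 over 62 tumours, with r 0.727 without the 2 tumours farthest from the median. Among the 55 tumours not below -0.3, r was 0.456. Both parts share each library's depth and scaling. In 36 of 36 pairs of bins the bin scores correlated positively, with a median r of 0.408 (0.115 to 0.792). The median was 0.501 for the 8 pairs of neighbouring bins, 0.384 for bins 2 to 3 apart and 0.434 for bins 4 or more apart.

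At the level of single genes the relation was closer for near neighbours. The median r over tumours was 0.202 for the 334 gene pairs under 0.1 Mb apart, which include overlapping genes, 0.136 for pairs 0.1 to 0.5 Mb apart and 0.110 for pairs 0.5 to 2 Mb apart. It was 0.0826 for pairs over 20 Mb apart, and 0.000586 between genes of chromosome 27 and genes of the other autosomes. Pairs far apart on the chromosome thus kept a positive median. The deviations were centred on each tumour's median over the autosomes, which draws the value between chromosomes towards 0.

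Most genes of chromosome 27 went with the rest of the chromosome to some degree, and few had a negative correlation with it. For each of the 277 scored genes, r was taken over the 62 tumours between the gene and the mean of the other 276. It was positive for 92.4% of the genes, with a median of 0.269 and a range from -0.134 to 0.639. No r was far below 0, so genes with a negative r are not shown to go against the chromosome. On other autosomes the share of genes with a positive r with their own mean ran from 67.2% (chromosome 25) to 94.4% (chromosome 17). By the limits used here 120 genes (43.3%) followed the chromosome at r of at least 0.3, 136 went with it weakly at r from 0 to 0.3, and 21 (7.58%) escaped it at r below 0. The classes of single genes depended on the measure: with Spearman's correlation 72 of the 120 still followed and 10 of the 21 still escaped, and without centring by the autosomes 107 and 15 did. A gene's change per unit of the chromosome mean had a median slope of 0.916 (quartiles 0.579 and 1.26), and of 1.17 among the genes that followed. Genes share each library's scaling, and these are descriptions over the same 62 tumours.

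Among genes whose log2 CPM averaged 4 or more, the 5 with the highest r lay in different bins. ENSCAFG00000025195, at 38104842 to 38111462, had r 0.64 and a slope of 1.19. Its log2 CPM was between 8.19 and 10.2 over the 62 tumours with a median of 9.42, and its counts between 934 and 6849. In the 7 low tumours it stood between 0.44 and 1.27 log2 units below its mean, after centring by the autosomes, and in the other 55 between -0.51 and 1.08. The low tumours were thus below its mean in 7 of 7 cases, though their range overlapped that of the others.

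ENSCAFG00000006593, at 1039594 to 1049788, had r 0.63, a log2 CPM from 3.34 to 6.30 with a median of 5.19, and deviations from -1.65 to -0.18 in the 7 low tumours. ENSCAFG00000013274, at 33789557 to 33832075, had r 0.62 and a log2 CPM from 2.03 to 6.58 with a median of 4.81. ENSCAFG00000011667, at 24567318 to 24624797, had r 0.59 and a log2 CPM from 3.96 to 6.86. ENSCAFG00000010713, at 17517155 to 17560511, had r 0.58, a log2 CPM from 3.93 to 6.56 and deviations from -1.29 to -0.65 in the 7 low tumours. All 5 genes were below their mean in 7 of 7 low tumours, which is part of what gave them their r, and in 21 to 27 of the other 55.

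The 5 genes with the lowest r at the same level were ENSCAFG00000012066 at 25200418 to 25388477 (r -0.12), ENSCAFG00000011838 at 24879380 to 25023618 (r -0.09), ENSCAFG00000025295 at 43113462 to 43114849 (r -0.08), ENSCAFG00000012883 at 31662925 to 31681642 (r -0.05) and ENSCAFG00000009261 at 8018880 to 8066331 (r -0.04). The log2 CPM of ENSCAFG00000012066 ran from 2.73 to 8.23 with a median of 4.95, and it was below its mean in 4 of the 7 low tumours, with deviations from -0.86 to 1.55 there. ENSCAFG00000009261 had 527 to 25571 counts over the tumours and a log2 CPM from 7.23 to 11.9. It was below its mean in 2 of the 7 low tumours and in 26 of the other 55. ENSCAFG00000011838 and ENSCAFG00000012066 are near each other on the chromosome, and both varied widely, the first from 1.90 to 7.42 log2 CPM.

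**Figure D2:**
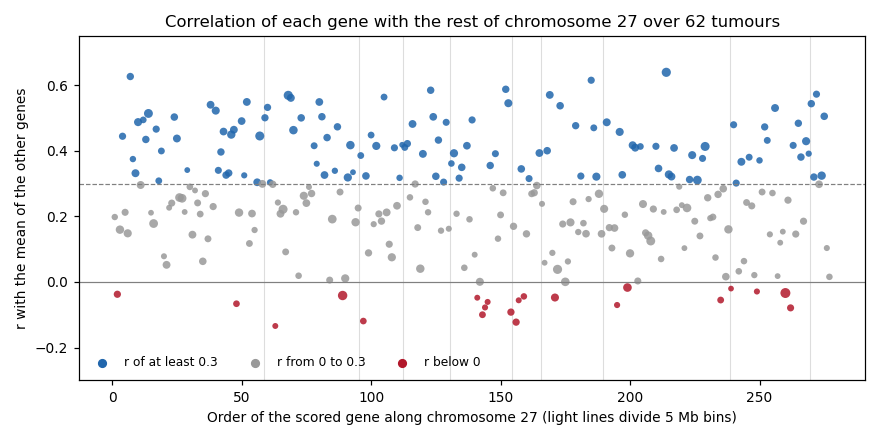
Correlation r of each of the 277 scored genes with the mean of the other scored genes over 62 tumours (vertical axis), by the order of the genes along chromosome 27 (horizontal axis, light lines between 5 Mb bins); larger points have a higher mean log2 CPM. Blue points (120) lie at or above the dashed line at 0.3, grey points (136) between 0 and 0.3 and red points (21) below 0.

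How closely a gene followed the chromosome went with how much the gene varied and hardly with its size or place. Over the 277 genes, r went down with the gene's own SD over tumours (Spearman's rho -0.562) and up with its mean log2 CPM (rho 0.287), while rho was 0.0145 with span, 0.0241 with exonic length, 0.151 with exon rows and -0.130 with position. Of the 182 genes with an SD under 1, 58.8% followed and 7 escaped. Of the 63 with an SD from 1 to 1.5, 15.9% followed and 10 escaped, and of the 32 with a larger SD 9.38% followed and 4 escaped. The slope did not shrink in the same way, with medians of 0.871, 0.916 and 1.73 in these classes. A slope is r multiplied by the gene's SD and divided by that of the chromosome mean, so a high SD raises a positive slope by construction. The slopes therefore do not show that genes with a high SD moved more with the chromosome. By the same relation, r is lower at a higher SD where slopes are alike. The fall of r with SD is thus also in part by construction. The median r in these classes was 0.326, 0.179 and 0.171.

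By mean log2 CPM, which is not scaled by gene length, 22.6% of the 93 lowest genes followed (2.02 to 4.13 log2 CPM), against 54.9% of the middle 91 and 52.7% of the 93 highest. Of the 21 genes that escaped, 9 overlapped another gene (42.9%), against 32.5% of those that followed and 27.2% of the weak ones. These counts are small, and the part of overlapping reads in them was not tested.

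By position, each of the 9 bins with a score held genes that followed, from 27.3% of 11 genes in bin 6 (25061404 to 29383479) to 55.6% of 18 in bin 4 (15119761 to 19976380), where none escaped. Bins 1 and 2, from 144362 to 9680363, had 48.3% of 58 and 48.6% of 37. Bin 5 (19984309 to 25023618) held 5 genes that escaped among 24 and bin 6 held 3 among 11. In the order of the scored genes, 5 of the 21 that escaped stood beside another that escaped. Whether that is more than in a random order was not tested. The r of a bin's score with the rest of the chromosome was lowest in bins 5 and 6 (0.429 in each) and bin 3 (0.448), and highest in bin 2 (0.797). The last bin, from 45019375 to 45856791, had only 8 scored genes and got no score, and 5 of them followed.

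At the ends of the chromosome, the outermost genes that passed the filter were ENSCAFG00000006349 at 424715 to 460097 and ENSCAFG00000016270 at 45854723 to 45856791. ENSCAFG00000006349 had 0 to 118 counts per tumour with a median of 10.0, below the level for the score. ENSCAFG00000016270 had 8 to 322 counts with a median of 42, and it was below its mean in 5 of the 7 low tumours. Of the genes outside the 564, the 8 single-exon genes at the level for the score had a median r of 0.222 with the chromosome mean (-0.117 to 0.457), and 1 of them followed. The 3 genes of 500 kb or more had a median r of 0.335 (0.108 to 0.522), and 2 followed.

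Set beside the other autosomes, chromosome 27 was in the upper part and not at the top. Under the same rule on exons, span and level, 43.3% of its genes followed their own mean, which was ninth of 38. The share was 68.4% for chromosome 17, 51.2% for chromosome 20 and 45% for chromosome 3, and lowest for chromosome 38 with 2.59%. The genes of chromosome 27 followed the mean of chromosome 17 in 5.42% of cases that of chromosome 3 in 17.7% and, most often among other autosomes, that of chromosome 36 in 22%. In the other direction, 0.495% to 8.70% of another autosome's genes followed the chromosome 27 mean, most of them for chromosome 3. The share that followed was thus larger for the chromosome's own mean than for the mean of any other autosome. The chromosome 27 score had r 0.471 with that of chromosome 34 (rho 0.395, r 0.322 without the 2 farthest tumours) and r 0.437 with that of chromosome 3 (rho 0.105, r 0.345). With chromosome 19 it was -0.451 (rho -0.339, r -0.550). Scores within a library are centred on each other, which links them.

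**Figure D3:**
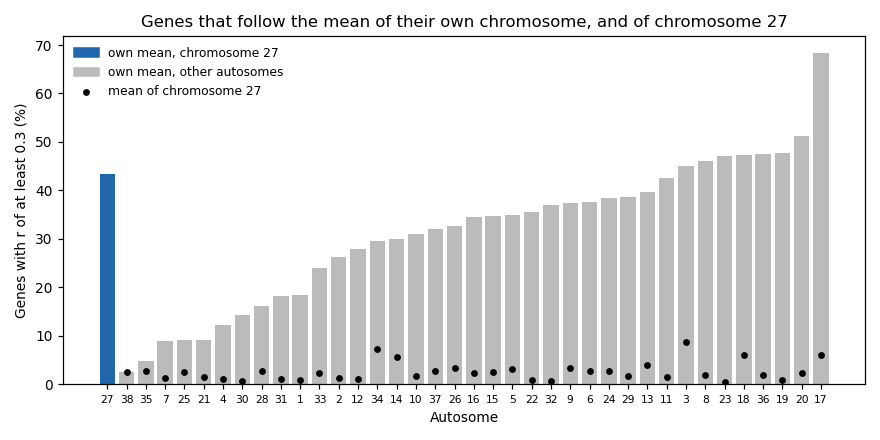
Percent of scored genes with r of at least 0.3 with the mean of the other genes of their own autosome (bars; chromosome 27 in blue at the left at 43.3%, then the other autosomes in grey from lowest to highest) and with the mean of chromosome 27 (black points). Chromosome 17 is highest at 68.4%, and the points reach at most 8.70%.

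Fewer genes reached the limit for following when the 7 low tumours were left out. Without them 13.3% of 278 genes followed the chromosome, the median r was 0.129 and 57 genes escaped. A positive r remained in 79.5% of the genes. The 7 were picked by the same mean that each gene is set against. Leaving them out narrows the range of that mean, which lowers r in part by construction. How much of the fall this makes up was not tested. Of the 120 genes that followed over all 62 tumours 30 still did, and of the 21 that escaped 12 still did and 0 followed. Other autosomes were set on the same terms by leaving out of each its own tumours below -0.3. Chromosome 17 then had 41.1% (16 tumours left out), chromosome 20 43% (4 left out), chromosome 36 32% (9 left out) and chromosome 3 27.1% (9 left out). Some other autosomes also fell far, chromosome 5 from 34.9% to 11.2% (4 left out), chromosome 34 from 29.6% to 13.6% (4 left out) and chromosome 33 from 24.0% to 10% (3 left out). Chromosome 27 was 29th of 38 on these terms. The number left out differed between autosomes and was 0 for some, such as chromosomes 9 and 11, so this rank sets unlike cases side by side.

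By treatment label, the low tumours were spread over untreated and Sx tumours. The score of the 9 SxRT tumours was 0.0198 at the lowest, 0.110 at the median and 0.204 at the highest, with none below 0 (mean 0.116 ± 0.0657, SD). In the 13 Sx tumours it was -0.605, -0.0425 and 0.324, with 7 below 0 (mean -0.0481 ± 0.298). In the 27 untreated tumours it was -0.683, 0.0573 and 0.274, with 11 below 0 (mean -0.0429 ± 0.253). The SxRT range lay within both the Sx and the untreated range. The order of the Sx and untreated medians depended on the scaling: without centring by the autosomes the median was 0.0976 in Sx and -0.00149 in untreated tumours, and over genes that overlap no other it was 0.00899 in Sx and 0.0596 in untreated tumours.

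The 3 RT tumours scored -0.00388, 0.104 and 0.112. The 3 anti-epileptic tumours scored -0.238, 0.0433 and 0.0712, and the 7 steroid tumours ran from -0.0484 to 0.156 with a median of 0.0871. Without the centring the anti-epileptic median was -0.0237. None of these 3 groups held a tumour below -0.3. With 3, 3 and 7 tumours, a group without a low tumour does not show that its share of them is lower, and no test was made of a score over genes chosen with earlier results known.

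The first number in a sample's name, from 11 to 22, is not explained by the labels. The archive years given for the tissue run from 2011 to 2022, and the labels do not tie the number to a year. Among names from 11 to 16, 0 of 9 surgical (Sx or SxRT) and 3 of 18 untreated tumours were below -0.3. Among names from 17 to 22, 2 of 13 surgical and 2 of 9 untreated tumours were. Low tumours occurred in both ranges of names.

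**Figure D4:**
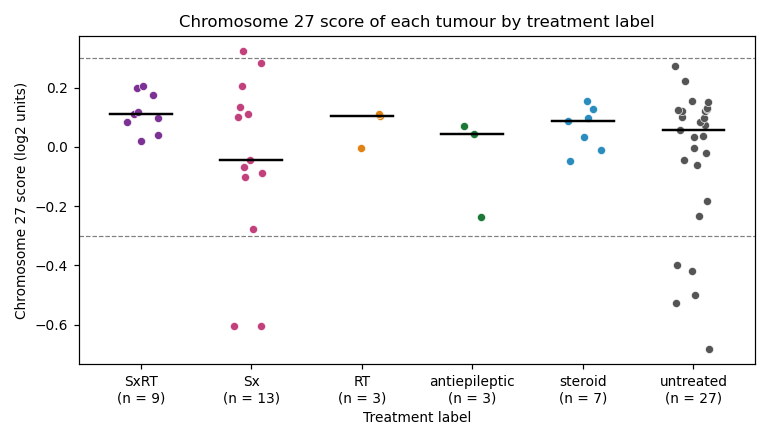
Chromosome 27 score of each tumour in log2 units (points, vertical axis) by treatment label, with the median of the group as a black bar and dashed lines at -0.3 and 0.3. The 7 tumours below the lower line are 2 of 13 Sx and 5 of 27 untreated tumours, and the 9 SxRT tumours lie between 0.0198 and 0.204.

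Bins did not all go with treatment in the same way. In bin 3, from 9782805 to 14938046, the score was below 0 in 9 of 9 SxRT tumours (-0.656 at the lowest, -0.315 at the median, -0.120 at the highest) and in 11 of 13 Sx tumours (-1.37, -0.286, 0.112), against 9 of 27 untreated tumours (-0.912, 0.141, 0.986). The 3 RT tumours stood at 0.512 to 0.555 there, and 6 of 7 steroid tumours were above 0. In bin 2, from 5018060 to 9680363, the score was above 0 in 9 of 9 SxRT tumours (0.00634, 0.273, 0.392), in 7 of 13 Sx tumours (-0.693, 0.00765, 0.363) and in 14 of 27 untreated tumours (-0.752, 0.0116, 0.382). Bin 8 likewise was above 0 in 9 of 9 SxRT tumours (0.0287, 0.147, 0.330), against 6 of 13 Sx tumours (-0.528, -0.000669, 0.663). In SxRT tumours the score of the chromosome was thus above 0 while bin 3 was below 0. Bins 4, 5 and 7 were mixed, below 0 in 3, 5 and 4 of 9 SxRT tumours. Bins 1, 6 and 9 were below 0 in 1, 2 and 2 of them. Bin 3 held 17 scored genes, and its score had the largest SD over tumours among the bins, 0.487. Bins were picked for this paragraph after their values were seen.

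Single genes were compared between treatments in an edgeR quasi-likelihood fit of all genes and all 62 tumours, with sex and neuter status as covariates and Benjamini-Hochberg adjustment over 18370 genes. With 1 library per dog, the p-values measure the spread between these dogs. The contrasts against untreated tumours share those 27 tumours. The names of all 27 untreated tumours begin with N and those of 21 of the 22 surgical tumours with S, a letter the labels do not explain, and the labels do not say which tumours were biopsies. Surgery and whatever the letter stands for cannot be told apart. In surgical (Sx or SxRT) against untreated tumours, 71 of the 403 tested chromosome 27 genes were called at an adjusted p under 0.05, 34 higher and 37 lower. Of all 18370 genes 16.8% were called in this contrast, 6.37% higher and 10.4% lower. The chromosome's share, 17.6%, was near that background. The median log2 fold change was 0.01 over the 403 genes and -0.02 over all genes.

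The higher and the lower genes differed in size. The 34 higher genes had log2 fold changes from 0.39 to 4.09 with a median of 0.85, and 15 were over 2-fold higher. The 37 lower genes had changes from -0.42 to -4.53 with a median of -2.48, and 31 were over 2-fold lower. Over all called genes of the fit the medians were 0.70 and -2.18. The mean log2 CPM, not scaled by gene length, had a median of 2.29 over the lower genes and of 4.86 over the higher ones.

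ENSCAFG00000007338, at 2891053 to 2955655, had a log2 CPM of 4.00 at the lowest, 8.04 at the median and 10.8 at the highest in surgical tumours, against 2.65, 4.93 and 7.07 in untreated tumours. Of the 22 surgical tumours 17 lay above every untreated tumour, and 19 above the untreated median. Its mean log2 CPM was 7.71 ± 1.82 in the 22 surgical tumours and 5.10 ± 1.14 in the 27 untreated ones (SD). The fitted log2 fold change was 3.14 with an SE of 0.406 (edgeR adjusted p 5.65e-07). ENSCAFG00000007293, at 2719057 to 2828175, had a median of 65 counts in surgical tumours (0 to 1035), against 10.0 in untreated tumours (0 to 208). In 18 of 22 surgical tumours it exceeded the untreated median, and its log2 fold change was 2.73 (SE 0.627, edgeR adjusted p 0.00193). Within names numbered 11 to 16 their changes were 0.53 (edgeR adjusted p 0.675) and 1.75 (0.402), neither called. Within 17 to 22 ENSCAFG00000007338 kept its call and was the 1 gene of the chromosome called. ENSCAFG00000007293 stood at 2.41 there and was not called (edgeR adjusted p 0.229). ENSCAFG00000007293 overlaps 4 others, 2 of them on the other strand, and its reads cannot be told apart from theirs.

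ENSCAFG00000008757, at 5573698 to 5577017, had 0 to 36 counts with a median of 2.0 in surgical tumours, against 0 to 412 with a median of 4.0 in untreated tumours. The groups overlapped at low counts, and 8 of 27 untreated tumours lay above every surgical tumour. It was lower by a log2 fold change of -3.84 (SE 0.866, edgeR adjusted p 0.00163), and it overlaps 1 gene on the other strand. ENSCAFG00000013148, at 32471153 to 32877680, had 2 to 74 counts with a median of 7.0 in surgical tumours, against 2 to 883 with a median of 24.0 in untreated tumours. Of the untreated tumours 10 of 27 lay above every surgical one, and the log2 fold change was -3.80 (SE 0.733, edgeR adjusted p 0.000359). For both genes the medians of the groups were closer together than the fitted fold change. In ENSCAFG00000013148, high counts were also seen outside these groups, up to 1354 in a steroid and 1002 in an anti-epileptic tumour. With limma voom ENSCAFG00000008757 stood at -1.34 (adjusted p 0.306) and ENSCAFG00000013148 at -2.10 (adjusted p 0.115), neither called. With the even share of low counts as a covariate, ENSCAFG00000013148 stood at -2.68 (edgeR adjusted p 0.0700), and neither gene was called within names 11 to 16 (-4.91 and -4.65) or 17 to 22 (-2.55 and -3.21). Each of these 4 genes, named by their changes, kept its call when any 1 of the 49 surgical and untreated tumours was left out.

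Along the chromosome, most of the higher genes lay near its start, which was not tested. Bins 1 and 2 held 23 of the 34 higher genes among 144 tested. In the stretch from 2719057 to 2955655, picked after its values were seen, 6 of 8 tested genes were called higher, and all 8 had positive log2 fold changes, from 1.02 to 4.09. Of the 8, 7 overlap another gene, so shared reads can enter several of them. Bin 3 had the opposite split, with 0 higher and 7 lower genes among 25 tested. In bin 5, 1 of 28 tested genes was called, and in bin 8, 6 of 81. Beside these counts stand the 16.8% of all genes called, 6.37% higher and 10.4% lower.

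**Figure D5:**
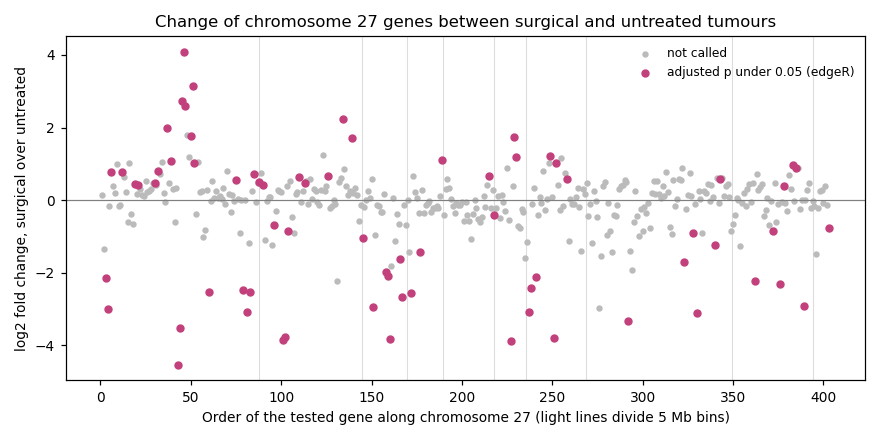
Fitted log2 fold change of each of the 403 tested genes, surgical over untreated tumours (vertical axis), by the order of the genes along chromosome 27 (horizontal axis, light lines between 5 Mb bins); pink points are the 71 genes with an edgeR adjusted p under 0.05. Bins 1 and 2 hold 23 of the 34 higher genes, and the lower genes reach -4.53.

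The calls with surgery were also counted by how the genes went with the chromosome. Of the 120 genes that followed, 11 were called higher and 2 lower (10.8%). Of the 136 weak ones 18 were higher and 19 lower (27.2%), and of the 21 that escaped 0 were called. Over all 18370 genes the shares were 16.8% called, 6.37% higher and 10.4% lower. Both measures come from the same tumours, and the difference between these shares was not tested.

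Library measures moved with surgery. The even share of low counts described above had a median of 86.6% in surgical tumours (79.3% to 93.9%), against 91.4% in untreated tumours (84.8% to 95.3%), and 21 of 22 surgical tumours lay below the untreated median. Mitochondrial counts had a median of 9.57% in surgical and 12.8% in untreated tumours. With the even share as a covariate, 20 genes of chromosome 27 were called, 11 higher and 9 lower, all among the 71, where 4% of all genes were called. Limma voom with quality weights called 40 higher and 16 lower (8.73% and 7.54% of all genes, 16.3% in all), so the split between the directions depends on the tool, and 46 of its calls were among the 71. Within names numbered 11 to 16 edgeR called 0 of the chromosome's genes and 0 of all 18153 tested, and within 17 to 22 it called 1, with 0.364% of all genes called. The calls were thus lost over all genes and not on chromosome 27 alone. Of the genes called in all tumours, 69 of 70 and 71 of 71 had the same sign there. The tumours of both ranges were among those that gave the calls, so this agreement is no separate support for them.

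In steroid-treated against untreated tumours, edgeR called 0 of the 403 genes, with 55 at an unadjusted p under 0.05 (11% of all genes were), and 0.256% of all genes were called. By DESeq2 4 were higher (0.844% of all genes called), and by limma voom 4 were higher and 1 lower (1.53% of all genes called). The gene with the smallest p was ENSCAFG00000015034, at 38441690 to 38453824. Its log2 CPM was 3.76 at the lowest, 4.23 at the median and 6.85 at the highest in steroid tumours, against 2.62, 3.97 and 4.95 in untreated tumours, and 2 of 7 steroid tumours, replicates 2 and 5, lay above every untreated one. The fitted difference was 1.14 in log2 units (SE 0.291, unadjusted p 0.000248, edgeR adjusted p 0.0721), and replicate 5 had 46.7% mitochondrial counts. Without that tumour the difference was 0.55 and not called (edgeR adjusted p 0.760), and limma voom gave 0.45 (adjusted p 0.429). It was called when steroid replicate 1, 3, 4, 6 or 7 or untreated replicate 10 was left out (edgeR adjusted p 0.0320 to 0.0478). Over its 42 alternatives the adjusted p ran from 0.0250 to 0.804.

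In SxRT against Sx tumours, edgeR called 0 of the 403 genes, with 24 at an unadjusted p under 0.05 (5.11% of all genes were), and 0.0109% of all genes were called. With DESeq2, 3 were higher and 3 lower (0.212% of all genes called), and with limma voom 1 was higher (0.0163% of all genes called). ENSCAFG00000012391, at 26560547 to 26878913, had the smallest p. Its log2 CPM was 3.67 at the lowest, 6.85 at the median and 8.89 at the highest in SxRT tumours, against 2.26, 4.57 and 5.86 in Sx tumours. Of the 9 SxRT tumours 6 lay above every Sx tumour. The fitted difference was 2.37 in log2 units (SE 0.498, edgeR adjusted p 0.0606), and it was called by DESeq2 (adjusted p 0.000653) and by limma voom (adjusted p 0.0438). It was also called by edgeR when SxRT replicate 1, 2, 4, 8 or 9 or Sx replicate 5 was left out (edgeR adjusted p 0.0169 to 0.0438). It was not called without SxRT replicate 7, where the difference was 1.83 (edgeR adjusted p 0.519), nor when the fit held just the SxRT and Sx tumours (2.32, edgeR adjusted p 0.866).

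In RT against untreated tumours, 1 of the 403 genes was called higher by edgeR, with 34 at an unadjusted p under 0.05 (7.85% of all genes were), and 0.435% of all genes were called. ENSCAFG00000012564, at 28424899 to 28796902, did not meet the rule for named genes and is given because it was the single call. It had 1713, 18 and 4 counts in RT replicates 1, 2 and 3, against 0 in 22 of 27 untreated tumours and at most 58 in the others. The log2 fold change was 8.09 (SE 1.24, edgeR adjusted p 3.77e-05), but without RT replicate 1 it was 2.94 and not called (edgeR adjusted p 0.963). DESeq2 did not call it either (8.38, adjusted p 0.296). DESeq2 called 1 other gene of the 403, lower (0.316% of all genes called), and limma voom called 6 higher (1.65% of all genes called).

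In anti-epileptic against untreated tumours, edgeR called 0 of the 403 genes, with 30 at an unadjusted p under 0.05 (4.61% of all genes were), and 0.00544% of all genes were called. DESeq2 found 2 lower (0.163% of all genes called) and limma voom 1 higher (0.0327% of all genes called). The smallest p was that of ENSCAFG00000008679, at 5475658 to 5487978, with 14, 45 and 29 counts, or 2.11, 3.87 and 2.61 log2 CPM, in anti-epileptic replicates 1, 2 and 3. In untreated tumours its log2 CPM was 2.25 at the lowest, 4.24 at the median and 5.36 at the highest. All 3 anti-epileptic tumours lay below the untreated median, at a fitted difference of -1.29 log2 units (SE 0.405, unadjusted p 0.00228, edgeR adjusted p 0.883).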

How the data were processed

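Total RNA of 62 paraffin-archived canine meningiomas was sequenced as 150 nt Illumina pairs, per the labels' protocols. Per the file headers, the deposited values are raw counts, which the authors made with featureCounts 2.0.4 from primary alignments, without strand, over the exons of each Ensembl release 100 gene on CanFam3.1. The submitters' processing notes name STAR and DESeq2, without a version. Paired counting was set without the fragment option, so both reads added to a gene's count, and 61.0% to 88.9% of the nonzero counts in a library were even.

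The genes, limits and tests were chosen with earlier results of these data known. Groups came from the treatment label, and replicate numbers follow accession order and do not pair tumours. Genes were filtered with filterByExpr by group (18370 left) and scaled by TMM (factors 0.557 to 1.24). Counts were fitted with edgeR 4.0.16 in R 4.3.3, with terms for the 6 groups, sex and neutering, and the fit was tested on simulated data first. Alternatives used DESeq2 1.42.0 and limma 3.58.1. Log2 CPM used a prior count of 2. Scores used Python 3.11.15 with numpy 2.4.6 and pandas 2.3.3.

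Named genes were, per contrast, the 2 largest changes per direction among called genes (adjusted p under 0.05) whose log2 CPM averaged 1 or more and whose group medians were at least 0.5 apart in the same direction, or, with none called, the gene with the smallest p. For r they were the 5 highest and 5 lowest where log2 CPM averaged 4 or more, and for position the outermost tested gene at each end. Lists of cell type markers and pathways need gene names and were not used. Genes with near-identical copies are uncertain, since how the authors assigned reads that match several genes is not stated beyond the use of primary alignments.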

Additional observations from a re-analysis of the deposited data

Results flagged for a closer look

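Within the treatment groups of 4 to 10 tumours, 1 tumour stood apart from the others of its group in 3 of the 40 checks made over the 20 values named here, and chance flags about 1 in 20. ENSCAFG00000013274, which followed the chromosome, had a log2 CPM of 6.58 in steroid replicate 1, where the next highest steroid tumour had 5.03. ENSCAFG00000008757 had 2.53 in SxRT replicate 5 (36 counts), against 0.28 in the next highest SxRT tumour. ENSCAFG00000013148 had 3.51 in the same tumour (74 counts), against 1.48 in the next. The mitochondrial share of SxRT replicate 5 was 19.98%, the highest among surgical tumours, and its part in these values was not tested.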

How the results depend on the processing

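No paired analysis was possible because replicate numbers only follow the accession order and each dog gave 1 library. No fold change of a named gene turned its direction. The split of the surgical calls went from 34 higher and 37 lower to 40 and 16 with limma voom, and without centring by the autosomes the median chromosome 27 score was above that of untreated tumours in Sx tumours (0.0976 and -0.00149), where it was below with it. The 71 calls with surgery became 20 with the even share as a covariate, 0 within names 11 to 16 and 1 within names 17 to 22, and 56 to 82 when 1 tumour was left out, with 44 of the 71 called in all 49 such fits. The 0 calls with steroid (0.256% of all genes called) became 4 with DESeq2 (0.844% of all genes) and 5 with limma voom (1.53%). They became 3 with every gene that had a count (0.578%) and 3 without sex and neuter status (0.593%). With 1 tumour left out they were 0 to 3, with 0.0109% to 0.772% of all genes called. The 1 to 3 calls came without steroid replicate 1, 2, 3, 4, 6 or 7 or untreated replicate 10 or 12. The 0 calls of SxRT against Sx (0.0109% of all genes called) became 6 with DESeq2 (0.212% of all genes). They became 1 each with every counted gene (0.0306%), limma voom (0.0163%) or no covariates (0.0599%). With 1 tumour left out they were 0 to 1, with 0% to 0.0926% of all genes called. The 1 call came without SxRT replicate 1, 2, 4, 8 or 9 or Sx replicate 5. The 1 call with RT (0.435% of all genes called) became 5 with every counted gene (0.826% of all genes) and 6 with limma voom (1.65%). Without covariates it became 2 (0.354%). With 1 tumour left out there were 0 to 5 calls. They were 0 without RT replicate 1 (0.0415%), 3 without replicate 2 (0.64%) and 5 without replicate 3 (1.01%). The 0 calls with an anti-epileptic (0.00544% of all genes called) became 2 with DESeq2 (0.163% of all genes) and 1 with limma voom (0.0327%). They stayed 0 in each fit with 1 tumour left out, with 0% to 0.0671% of all genes called. The share of genes that followed was 33.2% at a mean log2 CPM of at least 0, 55.1% at 4, 33.2% with Spearman's correlation and 13.3% without the 7 low tumours. It was 45.9% without the 2 tumours over 45% mitochondrial counts and 46.9% among genes that overlap no other, both tried after seeing the data. The causes were not tested, and the fits within names also held fewer tumours. Under each of 8 alternative scores the 7 low tumours were still below -0.3, and at most 8 were. Depth limits genes of few counts, and 161 of the 564 were not tested.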
